A study of Mus musculus with 2 samples.

Results

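The 10 genes described here make and move the end products of sugar breakdown. They are 6 enzymes of glycolysis from aldolase onward (Aldoa, Tpi1, Gapdh, Pgk1, Pgam1 and Pkm), both main lactate dehydrogenase subunits (Ldha and Ldhb) and the lactate carriers MCT1 (Slc16a1) and MCT4 (Slc16a3). They were chosen by symbol from a list of pathway members and not by their measured values, though earlier results of these data were known. They matched 11 of the 32285 features, because Aldoa names 2 of them. Enolase is not among the 10 and is described apart. The cells were CD45+ cells, that is leukocytes and microglia taken with antibody-coated beads, from brain tumours grown for 14 days from CT-2A, a mouse glioma cell line implanted into the brain. One library of single-cell 5′ RNA came from wildtype animals and 1 from animals labelled Glut5 KO, which lack the fructose transporter encoded by Slc2a5. The design text calls the same animals knockdown, and neither the age of the animals, their strain nor how the gene was lost is given in the sources used here. All animals carried the same tumour line, and the label names no cell type to which the loss was limited. With 1 library per genotype, no difference below has a replicate check, and no p-value is given. Intervals are 95% intervals for counting error only, so they leave out differences between animals and between library preparations.

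Glycolysis splits glucose into pyruvate in the cytosol. Aldolase and triose phosphate isomerase deliver the triose phosphates, Gapdh oxidises them with NAD+, Pgk1 and Pkm make ATP, and Pgam1 moves the phosphate between those ATP-making steps. Lactate dehydrogenase then turns pyruvate into lactate and returns NAD+. Its Ldha-rich tetramers are typical of tissues that release lactate, and its Ldhb-rich tetramers of tissues that take lactate up and burn it. MCT4 is known mainly for lactate export from glycolytic cells, whereas MCT1 carries lactate both ways. Several of these genes are known targets of hypoxia-inducible factor, which binds a short element with the core ACGTG or GCGTG. Fructose enters cells through Glut5 and can join glycolysis at the triose phosphates, just above Gapdh.

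The stretches below are the 250 bases before the RefSeq start (build GRCm38.p6) of 5 members. They were chosen after their values were seen, to show windows with several ACGTG matches (Ldha, Pgk1 and Slc16a3) and with none (Tpi1 and Ldhb). Capitals mark ACGTG on either strand, which reads CACGT where it lies on the other strand. The palindrome CACGTG holds the core on both strands and is counted on each.
Ldha chr7:46845554-46845803 + strand: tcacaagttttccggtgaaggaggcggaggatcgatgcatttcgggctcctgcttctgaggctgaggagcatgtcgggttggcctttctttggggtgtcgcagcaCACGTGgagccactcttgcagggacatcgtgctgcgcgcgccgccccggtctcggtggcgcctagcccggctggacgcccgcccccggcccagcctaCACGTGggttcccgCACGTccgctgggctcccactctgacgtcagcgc
Pgk1 chrX:106186850-106187099 + strand: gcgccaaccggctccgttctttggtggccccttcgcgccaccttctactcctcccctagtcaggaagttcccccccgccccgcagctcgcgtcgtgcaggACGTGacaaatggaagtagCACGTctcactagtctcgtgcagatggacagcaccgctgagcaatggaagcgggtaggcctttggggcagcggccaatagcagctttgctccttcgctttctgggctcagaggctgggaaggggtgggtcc
Slc16a3 chr11:120948817-120949066 + strand: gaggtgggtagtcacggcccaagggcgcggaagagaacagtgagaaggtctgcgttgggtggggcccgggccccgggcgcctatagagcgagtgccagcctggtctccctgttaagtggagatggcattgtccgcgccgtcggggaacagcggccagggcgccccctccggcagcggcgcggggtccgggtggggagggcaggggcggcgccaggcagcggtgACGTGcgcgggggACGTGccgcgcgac
Tpi1 chr6:124814159-124814408 - strand: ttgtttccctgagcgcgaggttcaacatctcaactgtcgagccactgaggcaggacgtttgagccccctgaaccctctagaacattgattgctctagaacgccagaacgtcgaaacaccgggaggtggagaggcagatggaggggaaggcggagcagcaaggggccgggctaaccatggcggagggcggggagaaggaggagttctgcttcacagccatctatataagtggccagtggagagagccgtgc
Ldhb chr6:142507958-142508207 - strand: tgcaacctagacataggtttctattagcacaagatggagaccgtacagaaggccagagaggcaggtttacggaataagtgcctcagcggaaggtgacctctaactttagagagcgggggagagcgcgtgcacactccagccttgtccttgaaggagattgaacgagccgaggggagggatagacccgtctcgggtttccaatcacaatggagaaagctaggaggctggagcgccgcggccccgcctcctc
Counted this way, the first of 2 listed Ldha starts had 5 matches, the nearest 34 bases before the start. Slc16a3 had 2 matches within the last 27 bases and Pgk1 had 2, whereas Tpi1 and Ldhb had 0. All 10 members had an entry in the table, and 7 had a match at 1 or more of their starts. By window this was 8 of 14, beside 16.6% of all 32851 windows of the same length. The windows of 2 Aldoa starts overlap and hold the same site, which is counted for each. GCGTG, also counted on both strands, had 1 match in the Ldhb window and 0 in the Tpi1, Pgk1, Slc16a3 and first Ldha windows. Gapdh, Pgam1 and Slc16a1 had 2 each and the second Ldha start 1, beside 28.2% of all windows with a match. A match of either kind is only these letters in this window.

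After removal of barcodes with fewer than 300 genes or with at least 10% mitochondrial UMIs, 11473 wildtype and 12112 knockout cells were left, with a median of 8682 and 6523.5 unique molecular identifiers (UMIs, 1 per captured RNA molecule) per cell. The libraries shared 188 barcode sequences. Slc2a5 gave 384 UMIs in the wildtype and 1 in the knockout library, and 331 of the 384 came from microglia-like cells. Cells were sorted into classes by marker genes. The largest were 6691 wildtype and 6170 knockout monocyte/macrophage-like cells and 1235 and 1070 microglia-like cells; 5 classes had at least 200 cells in both libraries and were compared between them. Another 4 classes with at least 50 cells are described by level. Cells left without a class made up 13.1% and 16.8%, with a median of 2240 and 1291 UMIs. Cells with markers of more than 1 class, or of a lymphocyte class together with macrophage genes, made up 3.24% and 5.60%. A set of 196 and 123 cells lay outside CD45 selection by their markers, with Ptprc (CD45) at 19.4 and 31.4 UMIs per 1000000 UMIs (CPM), against 325 and 322 in monocyte/macrophage-like cells. Each library held cells of both sexes by Xist and Y-linked transcripts, so each came from more than 1 animal. Dividing cells, those with UMIs of at least 2 of 12 cell cycle genes, made up 26.7% of wildtype and 14.1% of knockout microglia-like cells, and 27.6% and 16.4% of monocyte/macrophage-like cells. The 10 members together made up 0.439% of wildtype and 0.424% of knockout UMIs. Because reads come from the 5′ end of each RNA, transcript length does not enter the CPM. Gapdh, Ldha and Pgam1 have many processed copies in the genome, and the sources used here do not say how reads shared with such copies were counted.

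The glycolytic enzymes were abundant in every class. In summed counts, T cell-like cells held the highest Aldoa, Pgk1, Ldha and Pkm of both libraries. Aldoa, which splits fructose bisphosphate, stood at 1229.8 CPM in wildtype and 1238 CPM in knockout T cell-like cells. The next class was microglia-like cells, at 915 and 919 CPM. Pgk1, the first ATP-making enzyme, was at 423 and 401 CPM in T cell-like cells, above every other class in both libraries without overlap of intervals. Ldha was at 1422 and 1379.6 CPM there, followed by cDC1-like cells, cross-presenting dendritic cells, at 1135 and 1152 CPM. Pkm, the last enzyme of the pathway, was at 981 and 1015 CPM in T cell-like cells and 914 and 793 CPM in microglia-like cells. In knockout cells Tpi1 was highest in monocyte/macrophage-like cells, at 499 CPM, against 366 CPM in T cell-like cells. For some genes the order depended on how cells were weighted or classed. When each cell counted equally, Aldoa and Pgk1 stayed highest in T cell-like cells of both libraries, but cDC1-like cells led for Ldha at 1133 and 1134 CPM, against 1026 and 1076 CPM in T cell-like cells. Under the same weighting Gapdh led in wildtype microglia-like cells, at 823 CPM, and in knockout monocyte/macrophage-like cells, at 802 CPM. Wildtype Pkm was then highest in microglia-like cells, at 827 CPM beside 804 CPM in T cell-like cells, and wildtype Tpi1 in monocyte/macrophage-like cells, at 407 CPM beside 283 CPM. With classes taken from clusters, Pkm was highest in the cells without CD45, at 1089 and 1056 CPM.

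Within T cell-like cells several of the enzymes were higher in the dividing cells, whereas Ldhb was not. With every cell thinned to 2000 UMIs, wildtype T cell-like cells with at least 4 cell cycle UMIs had 500 CPM of Pgk1 against 240 CPM in those with 0, and 1407 against 875 CPM of Ldha. In knockout T cell-like cells the pairs were 500 against 247 CPM for Pgk1 and 1518 against 898 CPM for Ldha. Intervals were apart, all in the same direction, for 5 of 10 members in the wildtype and 7 of 10 in the knockout library. Aldoa and Pgam1 were apart in the knockout library only. Of all genes outside the list with at least 20 UMIs in these bins, 4.88% and 6.10% were higher by the same rule, and of those at 200 CPM or more, 9.25% and 13.3%. Monocyte/macrophage-like cells showed a different set: 4 wildtype and 6 knockout members were lower in cells with at least 4 cell cycle UMIs, led by Slc16a3 at 48.4 against 125 CPM and 34.6 against 148 CPM. Gapdh alone was higher there, at 948 against 765 CPM and 885 against 795 CPM. Over all genes the lower share was 10.0% and 7.19% and the higher share 20% and 15.1%. Among genes at 200 CPM or more the lower share was 41.5% and 40.3%. Slc16a3, Ldhb and Slc16a1 were below that level, so those shares are no background for them. Of the members at that level, Pkm, Aldoa and Tpi1 were lower in both libraries, Pgk1 and Ldha in the knockout library only, and Gapdh and Pgam1 in neither. Whether the members differ from the background at their level was not tested. Before thinning, the cells with at least 4 were deeper, with medians of 12947 against 4308 UMIs in wildtype and 14548.5 against 4905 UMIs in knockout T cell-like cells, and the part of cell size was not tested.

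The lowest class was the same in both libraries for Gapdh, Ldha and Pkm but not for Pgk1 (NK cell-like in wildtype, cDC2-like in knockout) or Aldoa (cDC2-like and cDC1-like). NK cell-like cells had the lowest Gapdh of the 9 classes, at 440.5 and 489 CPM, and migratory dendritic cell-like cells the lowest Ldha, at 472 and 407 CPM, and the lowest Pkm, at 446 and 387 CPM. Pgam1, the phosphoglycerate mutase, was highest in the cells without CD45, at 625 and 421 CPM, and monocyte/macrophage-like cells came next at 381 and 363 CPM. A few cells of rarer classes lay outside this range. Mast cell or basophil-like cells had 2104 and 1944 CPM of Ldha, but there were only 14 and 34 of them.

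**Figure D1:**
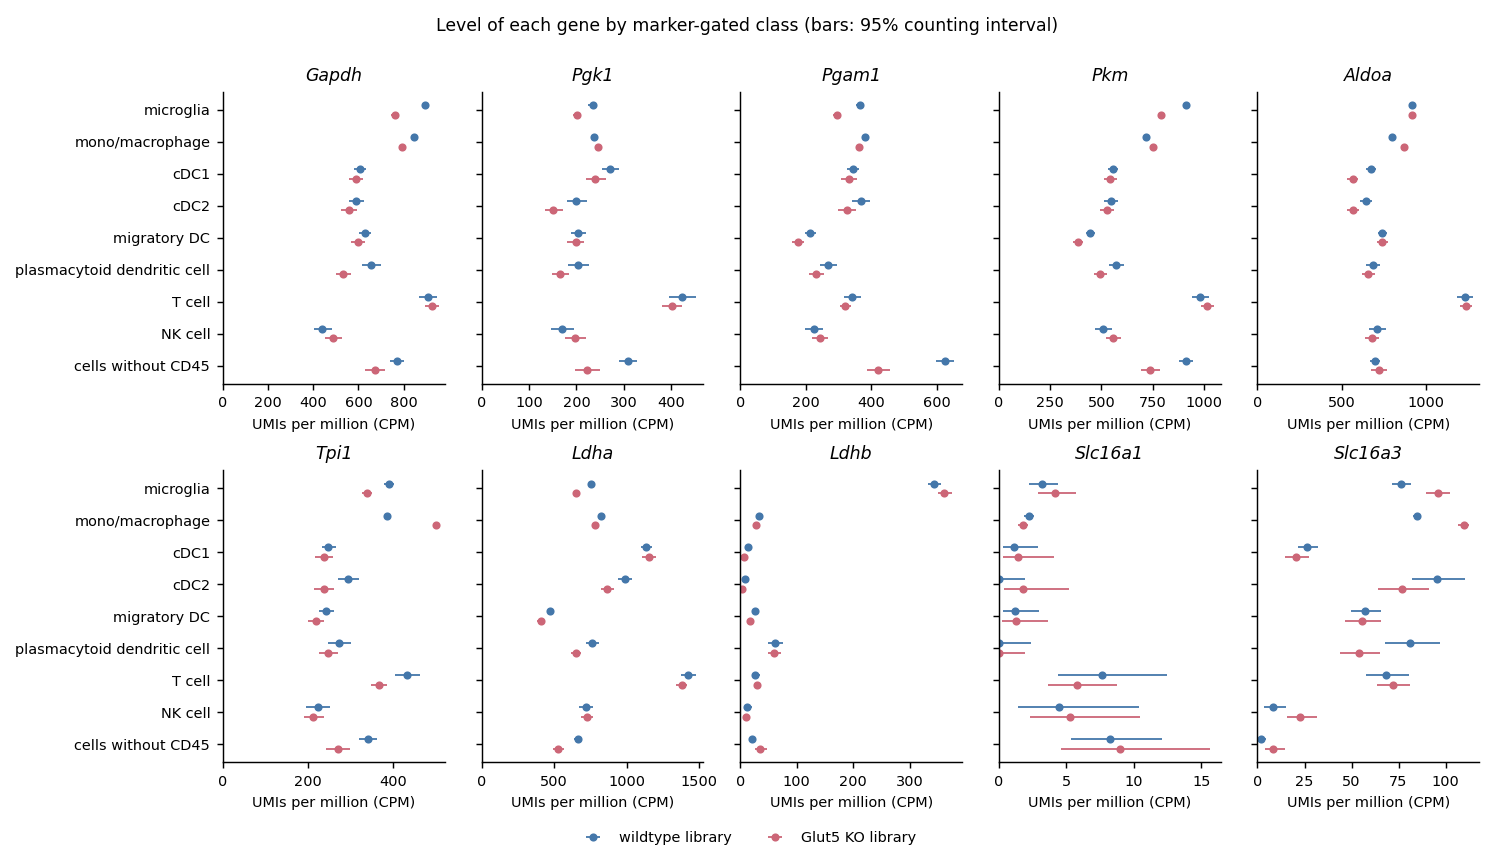
Levels of the 10 genes in CPM (x axes) in 9 marker-gated classes (rows), with wildtype in blue and Glut5 KO in red and bars for the 95% counting interval. T cell-like cells have the highest Pgk1, Aldoa and Ldha in both libraries, while Ldhb stands apart in microglia-like cells at 343 and 361 CPM.

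Ldhb set microglia-like cells apart from every other class. It was at 343 CPM in the wildtype and 361 CPM in the knockout library, against 32.4 and 27.3 CPM in monocyte/macrophage-like cells. The next class, plasmacytoid dendritic cell-like cells, had 61.3 and 60.1 CPM, and cDC2-like cells had only 8.96 and 2.37 CPM. In plasmacytoid dendritic cell-like cells all 9 microglia markers were above 1 CPM and summed to 1087 and 1323 CPM. Siglech is on both the microglia list and the class's own list, so its UMIs enter both sums. The monocyte/macrophage markers summed to 5712 and 6917 CPM and the class's own markers to 5808 and 7415 CPM. The part of microglia or macrophage RNA in the Ldhb of this class was not tested. The intervals of microglia-like cells overlapped those of no other class. Ldhb supplied 31.3% (30.5 to 32.1) of the Ldha and Ldhb UMIs in wildtype and 35.7% (34.7 to 36.7) in knockout microglia-like cells. The same share was 3.8% and 3.37% in monocyte/macrophage-like cells and 1.85% and 2.06% in T cell-like cells. In cells thinned to 1000 UMIs, 30.5% of wildtype and 29.9% of knockout microglia-like cells had an Ldhb UMI, against 2.85% and 2.63% of monocyte/macrophage-like cells. Before thinning these shares were 83.6%, 78.4%, 21.2% and 15.7%. No thinned cDC2-like cell had one, 0 of 182 and 0 of 176, and before thinning the shares there were 6.04% and 2.26%. The highest share outside microglia-like cells was 6.20% in wildtype plasmacytoid dendritic cell-like cells; the part of free RNA in these low shares was not tested.

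Along the ratio of microglia to monocyte/macrophage marker UMIs per cell, Ldhb was higher in each of 9 bins than in the bin before it, in both libraries. In the wildtype library it went from 21.7 CPM in cells with a log2 ratio under -4 to 419 CPM in cells at 4 or more, and in the knockout library from 15.4 to 431 CPM. The other enzymes followed another course. Gapdh was highest in the middle of the range, at 1107 CPM in wildtype cells with a log2 ratio of 2 to 3 and 1084 CPM in knockout cells with a ratio of 1 to 2. It was at 724 and 610 CPM in the cells richest in microglia markers, its lowest level in each library. Ldha had its lowest level in the same cells, 603 and 529 CPM. Cells in the middle of the range can hold RNA of both types, and how many are doublets was not tested. The genes whose class levels most resembled those of Ldhb, over 21 class sums that share libraries, were Syngr1 (Pearson r 0.95), C4b (0.92), Apoc1 (0.92), Phyhd1 (0.91) and Sall1 (0.91), a transcription factor gene that marks microglia and is in the gate.

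**Figure D2:**
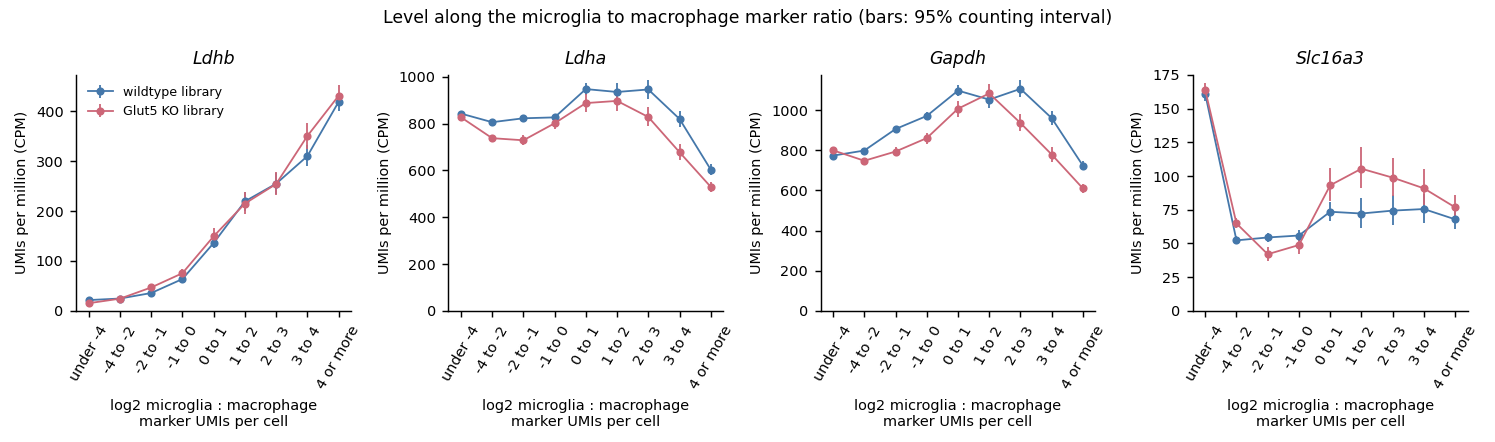
Levels of 4 genes in CPM (y axes) in cells binned by the log2 ratio of microglia to monocyte/macrophage marker UMIs (x axes), for the wildtype (blue) and Glut5 KO (red) libraries with 95% counting intervals. Ldhb climbs to 419 and 431 CPM, Ldha and Gapdh are lowest in the last bin, and Slc16a3 is highest in the first, at 161 and 164 CPM.

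The carriers were uneven. MCT4 (Slc16a3) supplied 96.5% of wildtype and 97.0% of knockout UMIs of the MCT pair over all cells. Slc16a1 was below 10 CPM in each of the 9 classes, with 0 UMIs in plasmacytoid dendritic cell-like cells of both libraries, where the floor of 3 counts is 1.94 and 1.57 CPM and the exact 95% interval reaches 2.38 and 1.93 CPM. Slc16a3 stood at 84.6 and 109.5 CPM in monocyte/macrophage-like cells, 76.3 and 95.8 CPM in microglia-like cells and 8.01 and 22.6 CPM in NK cell-like cells. Within the monocyte/macrophage-like class it marked 1 end. Cells rich in the monocyte markers Ly6c2, Plac8, Ccr2 and Chil3 had 174 CPM in the wildtype and 206 CPM in the knockout library. Cells rich in the macrophage markers Ms4a7 and Mrc1 had 46.7 and 37.6 CPM. Neutrophil-like cells were higher still, at 393 and 339 CPM, but there were 15 and 83 of them. The cells without CD45 had 1.97 and 8.22 CPM of Slc16a3 and 8.21 and 8.96 CPM of Slc16a1, so there the order of the carriers was the other way round in wildtype and level in knockout.

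All 10 members, with or without ACGTG near their start, were examined beside 20 hypoxia response genes outside glycolysis. That list holds, for example, Vegfa, the vascular growth factor gene, and Bnip3, of mitochondrial turnover, and 19 of its genes were in the files. Cells were thinned to 2000 UMIs and binned by their UMIs of that list. In monocyte/macrophage-like cells with at least 4 such UMIs, 9 wildtype and 8 knockout members were higher than in cells with 0 without overlap of intervals, and 6 in each library were at least 1.5-fold higher. Of all genes outside the list with at least 20 UMIs in these bins, 6.97% and 7.32% were higher without overlap and 3.72% and 4.53% by at least 1.5-fold as well. Among genes at 200 CPM or more, these shares were 28.0% and 30.6%, and 7.78% and 10.6%. Slc16a3 had the highest ratio of the members, at 222 against 68.6 CPM (3.24-fold) in the wildtype and 256 against 58.0 CPM (4.42-fold) in the knockout library. Tpi1, which had no ACGTG in its window, came to 609 against 322 CPM (1.89-fold) and 782 against 337 CPM (2.32-fold). Aldoa came to 1.85-fold and 1.95-fold, and Pgk1 to 1.93-fold and 1.76-fold. Gapdh, the usual reference gene, was only 1.19-fold and 1.32-fold higher, and Ldha 1.36-fold and 1.43-fold. Ldhb was 1.69-fold higher in the wildtype and 1.13-fold higher in the knockout library, where the intervals overlapped, and Slc16a1 was below 4 CPM in both bins of each library. Slc16a3 differed in the same way with another list: binned by dissociation and immediate-early genes, cells of this class with at least 4 UMIs had 112 and 140 CPM, and the 89 and 52 cells with 0 had 22.5 CPM (6.12 to 57.5) and 19.2 CPM (2.33 to 69.5).

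The same direction held in microglia-like cells for 6 wildtype and 5 knockout members, beside 1.25% and 1.98% of all genes and 4.53% and 4.97% of those at 200 CPM or more, with Tpi1 at 580 against 274 CPM and 447 against 266 CPM and with Ldhb at 328 against 317 CPM and 329 against 367 CPM, intervals overlapping. In T cell-like cells, 3 and 1 of the 10 were apart and higher (2.43% and 1.73% of genes), from 34 and 63 cells in the lowest bin. Cells of the highest bin had a median of 7486 UMIs before thinning in wildtype and 7219 in knockout monocyte/macrophage-like cells, and cells of the lowest bin 10453.5 and 10028, so the high bin was not the deeper one there. It was the deeper one in microglia-like cells, with medians of 11834 against 9238 UMIs and 10799.5 against 9047 UMIs, and in T cell-like cells, with 7437.5 against 5072 and 6146 against 4872; the part of cell size was not tested. The high bin held 19.6% of wildtype and 26.5% of knockout monocyte/macrophage-like cells.

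**Figure D3:**
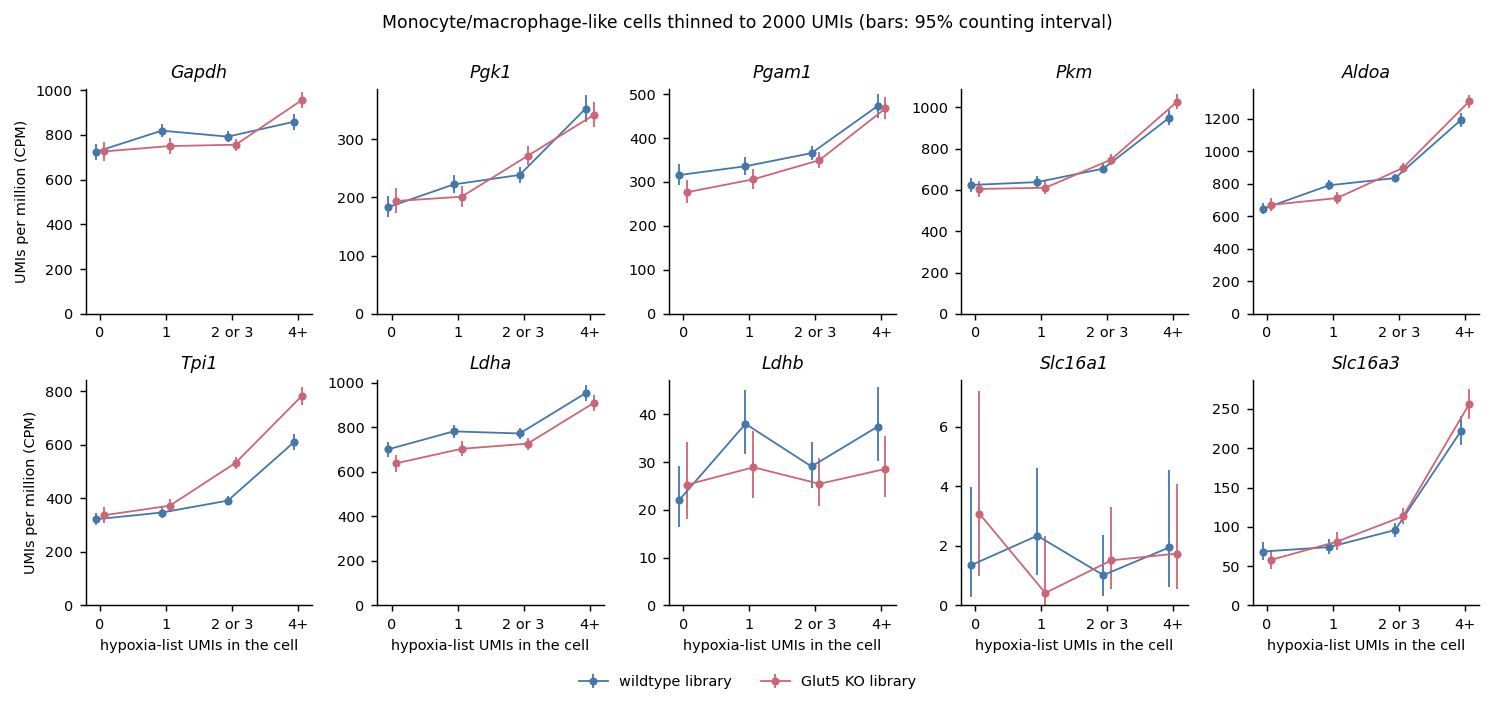
Levels in CPM (y axes) in monocyte/macrophage-like cells thinned to 2000 UMIs and binned by their UMIs of 19 hypoxia response genes outside glycolysis (x axes), wildtype in blue and Glut5 KO in red with 95% counting intervals. Slc16a3 has the steepest course, from 68.6 to 222 CPM and from 58.0 to 256 CPM, while Ldhb and Slc16a1 show none that both libraries share.

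Between the genotypes, microglia-like cells of the knockout library had slightly less of most enzymes. Gapdh was at 897 CPM in the wildtype and 762 CPM in the knockout library, a log2 ratio of -0.24 (-0.28 to -0.19). Pgam1 was at 365 and 295 CPM (-0.31, -0.38 to -0.24), Pgk1 at 234 and 201 CPM (-0.22), Ldha at 753 and 650.1 CPM (-0.21), Pkm at 914 and 793 CPM (-0.20) and Tpi1 at 390 and 338 CPM (-0.20). These 6 had intervals below 0, as did 20.9% of genes with at least 20 UMIs and 47.3% of those at 200 CPM or more. Aldoa did not differ beyond counting error, at 915 and 919 CPM (0.01, -0.03 to 0.05). Ldhb was slightly higher in the knockout library (0.07, 0.01 to 0.14), as was Slc16a3, at 76.3 and 95.8 CPM (0.33, 0.19 to 0.47). Intervals above 0 were found for 9.97% of genes and 31.3% of those at 200 CPM or more. None of the 10 reached 1.5-fold, beside 12.3% of the 11888 genes with at least 20 UMIs and 1.26% of the 712 at 200 CPM or more. The members' median log2 ratio was -0.20, beside -0.07 over those genes.

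The differences were smaller in female than in male microglia-like cells. The median over the members was -0.05 in female and -0.31 in male cells, and Tpi1 was at -0.01 in female and -0.30 in male cells. In cells thinned to 1000 UMIs the median over the members was -0.12.

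Monocyte/macrophage-like cells gave another pattern. Tpi1, which interconverts the triose phosphates, was at 385 CPM in the wildtype and 499 CPM in the knockout library (log2 ratio 0.37, 0.35 to 0.40). Slc16a3 was at 84.6 and 109.5 CPM (0.37, 0.32 to 0.42) and Aldoa at 797 and 866 CPM (0.12, 0.10 to 0.14). Pkm (0.06) and Pgk1 (0.05) were also above 0 by their intervals. Ldhb (-0.25, -0.34 to -0.15), Gapdh (-0.09), Ldha (-0.07) and Pgam1 (-0.07) were below 0. Of all genes with at least 20 UMIs, 18.7% had intervals above 0 and 32.0% below, and of those at 200 CPM or more, 28.3% and 64.3%. Here, too, 0 of the 10 reached 1.5-fold, beside 14.6% of 14615 genes and 4.60% of the 739 at 200 CPM or more, and the median was -0.01 beside -0.06 over all of them. Over cells of both sexes, Pkm, Pgk1 and Tpi1 therefore lay on opposite sides of 0 in the myeloid classes, and Ldhb as well with the signs exchanged. In female cells alone Pkm was at -0.003 in monocyte/macrophage-like and -0.04 in microglia-like cells. Female Pgk1 was at -0.06 and -0.05, so the signs did not differ there. Ldhb in monocyte/macrophage-like cells was at -0.55 in female and 0.14 in male cells. These contrasts were not tested.

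In the remaining classes few members differed beyond counting error. Migratory dendritic cell-like cells had 0 of 9 measured members at 1.5-fold (14.5% of genes), with Pgam1 at 214 and 176 CPM (-0.28), Pkm (-0.21), Ldha (-0.21) and Ldhb (-0.58, from 88 and 41 UMIs) below 0, as were 9.66% of genes and 31.7% of those at 200 CPM or more. Those ratios depended on the processing. Of 12 alternatives, 1 gave Pgam1 and 2 gave Ldhb the other sign, with 0.17 and 0.80 in cells thinned to 1000 UMIs. Pkm and Ldha kept their sign. Pkm was at -0.004 without the highest Scrublet scores, and Ldha at -0.01 with the mean of each cell's CPM. T cell-like cells had 0 of 10 (14.2% of genes) and a median of -0.02. Tpi1 was the 1 member apart there, at 433 and 366 CPM (-0.24, -0.36 to -0.12), beside 17.9% of genes and 53.1% of those at 200 CPM or more. NK cell-like cells had 1 of 9 (15.5% of genes), Slc16a3, with 9 and 34 UMIs (1.44, 0.40 to 2.74). C1qa, a macrophage and microglia gene, was at 529 and 310 CPM in NK cell-like cells, and the part of carried-over myeloid RNA was not tested.

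**Figure D4:**
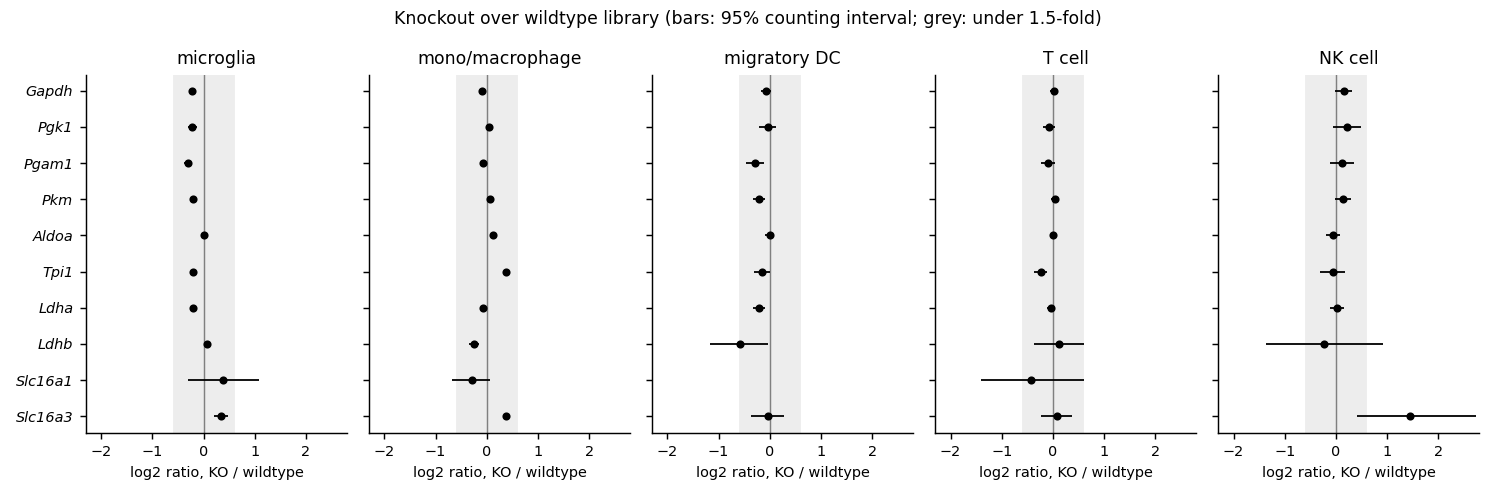
Log2 ratio of the Glut5 KO over the wildtype library (x axes) for each member with at least 20 UMIs (rows) in 5 classes, with 95% counting intervals and the range under 1.5-fold in grey. Every point but Slc16a3 in NK cell-like cells lies in the grey range, and Tpi1 is on the right in monocyte/macrophage-like cells (0.37) and on the left in microglia-like (-0.20) and T cell-like cells (-0.24).

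The Tpi1, Slc16a3 and Aldoa differences were found in male cells. In male cells of the whole class, Tpi1 was at 385 CPM in the wildtype and 607 CPM in the knockout library (0.66, 0.62 to 0.70), Slc16a3 at 82.1 and 141 CPM (0.78, 0.70 to 0.87) and Aldoa at 782 and 1043 CPM (0.42, 0.39 to 0.45). Tpi1 and Slc16a3 passed 1.5-fold there. In female cells Tpi1 was at 360 and 374 CPM (0.05, 0.01 to 0.10), Slc16a3 at 66.0 and 58.5 CPM (-0.17, -0.29 to -0.06) and Aldoa at 714 and 654 CPM (-0.13, -0.16 to -0.09).

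Split further, Tpi1 reached 848 CPM in male knockout cells of the monocyte end, against 461 CPM in the male wildtype cells (0.88, 0.81 to 0.94). It was lower in the female knockout than in the female wildtype cells of that end, at 414 and 467 CPM (-0.17, -0.26 to -0.08). Aldoa was at 962 and 1415 CPM in males and 1108 and 801 CPM in females. Slc16a3 was at 158 and 266 CPM in males and 186 and 129.96 CPM in females. At the macrophage end the sexes went together: Slc16a3 was lower in the knockout library in males (57.8 and 46.7 CPM) and in females (32.9 and 28.3 CPM), and Tpi1 slightly higher in both (364 and 410 CPM, 331 and 352 CPM). The monocyte end made up 40.8% of the class in the wildtype and 51.8% in the knockout library, and the macrophage end 48.9% and 34.0%.

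Other features moved with the male difference. In male monocyte/macrophage-like cells the hypoxia list summed to 1039 CPM in the wildtype and 1455 CPM in the knockout library, and dividing cells made up 32.8% and 13%. In female cells the sums were 929 and 956 CPM and the dividing shares 33.6% and 28.2%. Females made up 42.0% of the sexed cells of the class in the wildtype and 57.7% in the knockout library. Their part in the result was not tested. Cells of a sex come from different animals than cells of the other, and the number of animals is not given in the sources used here, so genotype and single animals cannot be told apart.

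**Figure D5:**
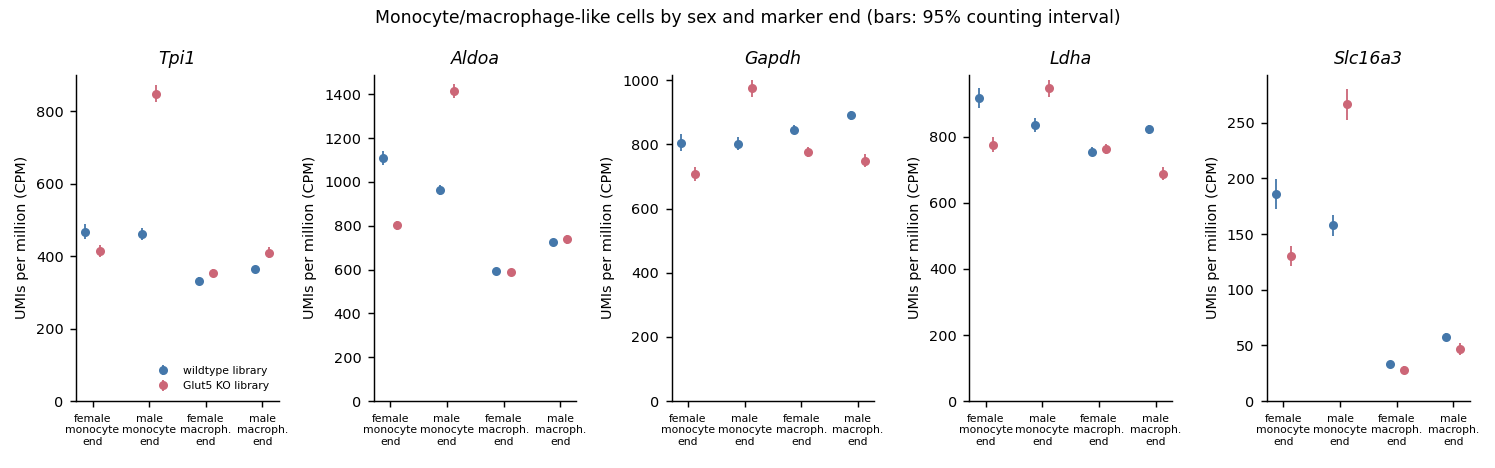
Levels of 5 members in CPM (y axes) in monocyte/macrophage-like cells by sex and marker end (x axes), wildtype in blue and Glut5 KO in red with 95% counting intervals. Male knockout cells of the monocyte end stand above the other groups for Tpi1 (848 CPM), Aldoa (1415 CPM) and Slc16a3 (266 CPM).

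The steps around the members were read from lists of the same pathway. Upper glycolysis, from glucose entry to phosphofructokinase, had 0 of 14 genes at 1.5-fold in monocyte/macrophage-like cells, beside 14.6% of all genes. Of the 14, 9 had intervals above 0 and 0 below (18.7% and 32.0% of genes), and the median log2 ratio was 0.16. Slc2a1, the glucose transporter Glut1, was at 76.6 and 112 CPM (0.55, 0.50 to 0.60), and Hk1, a hexokinase, at 21.6 and 28.7 CPM (0.41). Of 13 measured in microglia-like cells, 0 were higher and 1 was lower at 1.5-fold (3.38% and 8.95% of genes), Tigar, a bisphosphatase that slows glycolysis, at 7.98 and 4.90 CPM (-0.69). Slc2a1 was again higher there, at 84.7 and 117 CPM (0.46, 0.34 to 0.59).

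Of 5 measured lactate transport partners and receptors, 2 had intervals above 0 and 1 below in microglia-like cells (9.97% and 20.9% of genes). In monocyte/macrophage-like cells 3 were above and 2 below (18.7% and 32.0% of genes). Bsg, the chaperone that brings MCT1 and MCT4 to the cell surface, was at 542 and 510 CPM in microglia-like cells (-0.09, -0.14 to -0.03) and 351 and 302 CPM in monocyte/macrophage-like cells (-0.22, -0.25 to -0.19). Gpr132, a receptor reported to sense lactate, was at 6.18 and 9.37 CPM in microglia-like cells (0.60, 0.13 to 1.07), the 1 of 5 past 1.5-fold there (12.3% of genes). In monocyte/macrophage-like cells 0 of 5 passed it (14.6% of genes), and Gpr132 was at 113 and 128 CPM (0.18) and Emb, a partner of MCT2, at 78.9 and 88.9 CPM (0.17). Genes of pyruvate entry into mitochondria had 3 of 13 intervals below 0 and 0 above in microglia-like cells (20.9% and 9.97% of genes), with Mpc2, of the pyruvate carrier, at 125 and 104 CPM (-0.27).

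Of the measured regulators of the pathway, 1 of 13 was at least 1.5-fold higher and 0 lower in microglia-like cells (3.38% and 8.95% of genes). Their log2 ratios had a median of -0.06. In monocyte/macrophage-like cells 2 of 14 were higher and 1 lower (7.12% and 7.51% of genes), with a median of 0.08. Hif1a, the oxygen-regulated transcription factor gene, was at 124 and 156 CPM in microglia-like cells (0.33) and 109 and 145 CPM in monocyte/macrophage-like cells (0.41, 0.37 to 0.46). Egln3, a prolyl hydroxylase that is itself a hypoxia target, was at 7.63 and 17.4 CPM (1.19, 0.81 to 1.58) and 4.27 and 7.89 CPM (0.89, 0.67 to 1.10). Of 18 measured hypoxia genes, 5 were at least 1.5-fold higher and 1 lower in monocyte/macrophage-like cells (7.12% and 7.51% of genes), among them Ndrg1 at 12 and 22 CPM (0.87) and Ddit4 at 21.5 and 36.7 CPM (0.77). In microglia-like cells 2 of 16 were higher and 2 lower (3.38% and 8.95% of genes), with Vegfa at 7.81 and 12.3 CPM (0.66) and Higd1a at 102 and 69.9 CPM (-0.54). Cell cycle genes were lower: 11 of 12 by at least 1.5-fold in each class (8.95% and 7.51% of genes), with medians of -0.83 and -0.74. Dissociation and immediate-early genes went opposite ways, with 8 of 10 intervals below 0 in microglia-like (20.9% of genes) and 9 of 10 above 0 in monocyte/macrophage-like cells (18.7%). Fos was at 1383 and 1134 CPM in the first and 1605 and 2165 CPM in the second.

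Eno1, the enolase between Pgam1 and Pkm, was lower in the knockout library in all 9 classes, with each interval below 0. It was at 172 and 122 CPM in microglia-like cells (-0.50, -0.60 to -0.39), 202 and 157 CPM in monocyte/macrophage-like cells (-0.37) and 278 and 199 CPM in T cell-like cells (-0.48). The cells without CD45 had 257 and 208 CPM (-0.31). None of the 10 members was lower in all of the 5 compared classes by its interval. In the cells without CD45, which were not among those 5, several members were also lower in the knockout library. Pgam1 was at 625 and 421 CPM, Pgk1 at 308 and 223, Ldha at 664 and 529 and Pkm at 910 and 739. Gapdh and Tpi1 were lower too, whereas Aldoa, Ldhb, Slc16a1 and Slc16a3 were higher. Of the sexed cells there, 99.4% and 97.7% were female. Whether they came from the implanted tumour line was not tested. Eno1 lies on chromosome 4, 92.6 kb beyond the end of Slc2a5 (mm10 annotation), the gene that is lost in the knockout animals. Whether this position bears on its level was not tested.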

How the data were processed

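The deposited files hold 1 filtered feature-barcode matrix per library, whose values are raw UMI counts per gene and cell made by the authors with Cell Ranger 3.1.0 on mm10, per the submitters' processing notes; the file headers name 7.0.1. From these counts, cells with at least 300 genes and under 10% mitochondrial UMIs were kept. A rare class needed UMIs of at least 3 of its markers and 10 marker UMIs per 10000. Cells passing for more than 1 class were set apart. So were T, NK, B and plasma cell-like cells with at least 5 UMIs per 10000 of Ms4a7, Tgfbi, Ms4a6c, Mrc1 and F13a1 together. Dendritic cell classes had no such step. Cells passing for no rare class were split by the log2 ratio of microglia to monocyte/macrophage marker UMIs (at least 1, or at most 0). These limits were set after seeing the data, and the members and lists were chosen with earlier results of these data known. UMIs were summed per class and library and given as CPM with exact Poisson intervals. Log2 ratios had 0.5 added to each count and conditional binomial intervals, and shares Clopper-Pearson intervals, at 95%. The ratio script was tested on simulated data. A gene counted as apart at 1.5-fold with at least 20 UMIs. Cells with Xist and no Y-linked UMIs were called female and the reverse male, which left 4962 and 5993 cells unsexed. The ends of the monocyte/macrophage-like class were cells with a log2 ratio of at least 1 between their markers; these ends and the bins by list UMIs were also chosen after seeing the data. No doublet call removed cells in the main analysis; Scrublet scores served as an alternative, as did joint Leiden clusters (scanpy 1.11.5, 27 clusters) and TMM scaling (edgeR 4.0.16). Members were all named; other genes were the highest and lowest ratios of each list with at least 100 UMIs, and Eno1, Bsg, Hif1a, Slc2a1, Slc2a5 and Ptprc always.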

Additional observations from a re-analysis of the deposited data

Results flagged for a closer look

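The results below are log2 ratios of the Glut5 KO over the wildtype library whose intervals lay on opposite sides of 0 in different classes or in the sexes of a class. None of these differences was tested, since each genotype had 1 library.

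Between classes, Tpi1 was at 0.37 in monocyte/macrophage-like cells and at -0.20 in microglia-like and -0.24 in T cell-like cells. Pgk1 was at 0.047 in monocyte/macrophage-like and -0.22 in microglia-like cells. Pkm was at 0.065 in monocyte/macrophage-like, -0.20 in microglia-like and -0.21 in migratory dendritic cell-like cells. Ldhb went the other way, at 0.073 in microglia-like, -0.25 in monocyte/macrophage-like and -0.58 in migratory dendritic cell-like cells. In female cells alone Pgk1 and Pkm were below 0 in both myeloid classes. Ldhb was above 0 in male monocyte/macrophage-like cells, at 0.14. In migratory dendritic cell-like cells Pkm was at -0.004 without the highest Scrublet scores, and Ldhb at 0.80 in cells thinned to 1000 UMIs.

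Between sexes, Slc16a3 was at -0.17 in female and 0.78 in male monocyte/macrophage-like cells, and at -0.88 and 0.80 in female and male migratory dendritic cell-like cells. Aldoa was at -0.13 and 0.42 in female and male monocyte/macrophage-like cells, and at 0.11 and -0.080 in microglia-like cells. Gapdh was at -0.27 and 0.34 in female and male migratory dendritic cell-like cells. Ldha was at 0.28 and -0.13 in female and male T cell-like cells.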

How the results depend on the processing

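The medians and the counts of members 1.5-fold apart in microglia-like and monocyte/macrophage-like cells were computed under 12 alternatives each. The microglia-like count of 0 became 1 with the mean of each cell's CPM and 1 in male cells, and the monocyte/macrophage-like count of 0 became 2 in male cells. The microglia-like median of -0.20 became -0.12 in cells thinned to 1000 UMIs, -0.046 in female and -0.31 in male cells. The monocyte/macrophage-like median of -0.01 became -0.041 with CPM computed without mitochondrial, ribosomal protein and member genes, -0.15 in female and 0.16 in male cells. The cause was not tested. Of 600 single ratios under an alternative over 5 classes, 445 stayed within the main counting interval and 155 moved outside it. In monocyte/macrophage-like cells Tpi1 ranged from 0.05 (female) to 0.66 (male) and Slc16a3 from -0.17 to 0.78. The highest wildtype class of a member was kept in 56 of 70 cases; in the other cases the mean of each cell's CPM, thinning or another gate or scaling changed it. Joint clusters gave no wildtype cDC2-like class; over the classes left, the highest class became the cells without CD45 for Pkm (1089 and 1056 CPM), microglia-like cells for wildtype Gapdh (974 CPM) and Tpi1 (444 CPM), the cells without CD45 for knockout Gapdh (944 CPM) and plasmacytoid dendritic cell-like cells for wildtype Slc16a3 (91.8 CPM). Counts of all genes 1.5-fold apart depended on the low-count filter: in microglia-like cells they were 531 with at least 100 UMIs and 6048 with at least 1. TMM scaling moved the median of all genes in microglia-like cells from -0.07 to -0.01. No paired analysis was possible because each genotype had 1 library, and no replicate could be left out. Genes below 10 CPM, such as Slc16a1, were limited by depth.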
